A study of Arabidopsis thaliana with 9 samples.

Results

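Leaves of wild-type Arabidopsis thaliana of the ecotype Nossen (No-0) were compared 24 h after the plants had been moved from 28 °C to 21 °C and before the move, at 0 h. The comparison takes 2 of the 8 libraries of the series, 1 library at each time, and it has no replicate and no p-value. Of 21063 genes with at least 1 sense tag in the series, 3563 were compared, namely those with 20 or more sense tags in at least 1 of these 2 libraries. They held 87.4% of the sense tags of the 24 h library and 86.0% of those of the 0 h library.

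The 24 h leaves came from plants at 21 °C and the 0 h leaves from plants at 28 °C. All plants were 4 weeks old, had grown at 28 °C in short days of 10 h light and 14 h dark, and were moved at the beginning of a light period. Neither group carried a mutation or had been treated with anything but the change of temperature. The hour of harvest is given only as the time since the move, and how many plants went into a library is not given in the sources used here. With 1 library a side, the temperature, the time since the move and the library itself cannot be told apart. The other 6 libraries are No-0 at 6 and 9 h and, at all 4 times, slh1, a mutant in the immune receptor gene RRS1. Transcripts were measured by EXPRSS Tag-seq, which counts 1 tag from the fragment nearest the 3′ end of each polyadenylated transcript and keeps its strand.

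Leaves run a daily programme of transcription. A circadian clock of morning genes (CCA1, LHY and the REVEILLE genes) and evening genes (GI, ELF4 and LUX among them), with PRR genes that act in turn from morning to evening, sets the hour at which its outputs are transcribed, among them genes of starch turnover, photosynthesis and the cold response. Starch is made in the chloroplast by day and broken down at night, and genes of the dark and sugar starvation response rise when a leaf runs short of carbon. Temperature acts on many of the same genes.

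The 24 h library held 503398 sense tags and the 0 h library 362764, so that 1 tag is worth 1.99 TPM (tags per 1000000 sense tags) at 24 h and 2.76 TPM at 0 h. Chloroplast-encoded loci took 13.4% of sense tags at 24 h and 22.6% at 0 h. All 7 root markers were at 0 tags in both libraries, no flower or seed marker passed 3 tags, and all 6 mesophyll markers were detected at 20 tags or more, as a leaf sample would hold. In whole leaves, fewer cells of a type and less RNA per cell cannot be told apart.

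A gene was called higher or lower when its log2(TPM + 5) differed by at least 1 and the exact 95% binomial (Clopper-Pearson) interval of its ratio left out 1. The added 5 TPM makes the difference of low genes smaller than their ratio. A gene that reached 20 tags in 1 library alone necessarily had fewer tags in the other, which favours a difference. The counts that follow therefore describe the libraries and are no test. By this rule 1022 genes (28.7%) were higher and 665 (18.7%) lower at 24 h, 1687 (47.3%) in all. At 4-fold, a difference of at least 2, the counts were 418 higher (11.7%), 234 lower (6.57%) and 652 (18.3%) in all. The median difference was 0.26 and the quartiles were -0.68 and 1.20. The deeper 24 h library let more genes in, since 1322 genes reached 20 tags at 24 h alone and 511 at 0 h alone. When the 24 h library was thinned to the depth of the 0 h library, 799 genes were higher, 672 were lower and the median was 0.07. Other scalings moved every log2 ratio by 0.14 (TMM), 0.18 (RLE) or -0.16 (nuclear tags only), and under nuclear scaling the calls were 902 higher and 770 lower. The count of higher against lower genes therefore depends on the depth and the scaling. No gene called one way was called the other way under any of these settings. That could hardly have come out otherwise, since a call needs a difference of at least 1 and the scalings moved ratios far less. It is no check of direction.

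**Figure D1:**
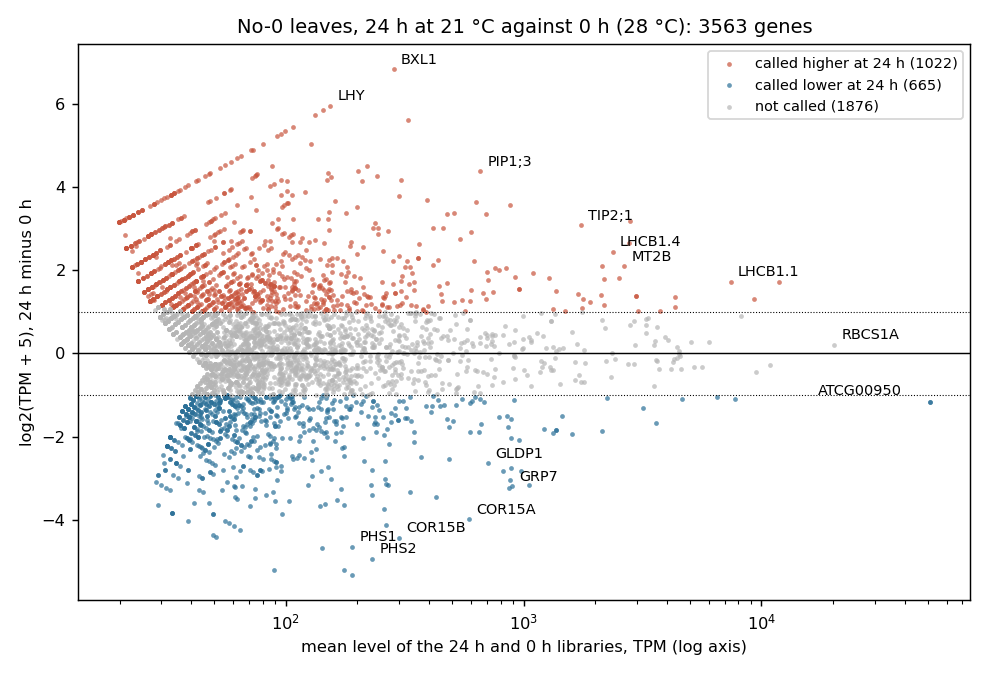
Difference between 24 h and 0 h (log2(TPM + 5), 24 h minus 0 h, vertical axis) against the mean level of the 2 libraries (TPM, horizontal log axis) for the 3563 compared genes, 1 point a gene. Genes called higher (1022) and lower (665) are coloured, and among the labelled ones BXL1 and LHY lie at the top and PHS1 and PHS2 near the bottom.

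The genes with the largest increase included clock, carbon starvation and cell wall genes, and most of them had no tag at 0 h. BXL1, a beta-xylosidase of the cell wall (chromosome 5, 20011812 to 20016857), had 286 tags at 24 h and 0 tags at 0 h. That is at least 68.7-fold higher, against a floor of 3 tags in the 0 h library. LHY, a MYB-like transcription factor at the core of the morning clock (chromosome 1, 33365 to 37871), had 155 tags at 24 h and 0 at 0 h, 37.2-fold above the floor. GSTF2, a glutathione transferase, had 144 tags at 24 h and 0 at 0 h (34.7-fold above the floor), with its count partly shared with related genes. SEN1, a gene of dark-induced senescence, had 133 tags at 24 h and 0 at 0 h (31.9-fold above the floor). The remaining genes with 0 tags at 0 h among the 14 largest increases were AT1G10682, which is annotated as a non-coding RNA, AT1G68440, the peroxidase AT2G37130, the arabinogalactan protein AGP31, SAG21, the pathogenesis-related PR4, the beta-galactosidase BGAL4 and AT4G29030. Their tags at 24 h lay between 65 for AT4G29030 and 108 for AT1G10682. AT3G15450, annotated as an aluminium-induced protein, had 324 tags at 24 h and 3 at 0 h, a ratio of 77.7 (interval 26.4 to 379). AT1G55960, of a lipid transport family, had 127 tags at 24 h and 1 at 0 h (interval of the ratio 16.1 to 3643). In all, 66 of the genes called higher had 0 tags at 0 h.

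Among the largest decreases, enzymes of starch breakdown stood beside a cold-regulated gene. The cytosolic glucan phosphorylase PHS2 (chromosome 3, 17301394 to 17306633) had 5 tags at 24 h and 164 at 0 h, a ratio of 0.0220 (0.00704 to 0.0523). DPE2, which acts on the maltose that leaves the chloroplast, had 3 tags at 24 h and 101 at 0 h, a ratio of 0.0214 (0.00434 to 0.0644). The chloroplast phosphorylase PHS1 had 5 tags at 24 h and 134 at 0 h, a ratio of 0.0269 (0.00859 to 0.0643). All 3 are enzymes of glucan metabolism, and their tags at 24 h were at most 5. COR15B, which encodes a chloroplast protein that protects membranes in the cold, had 11 tags at 24 h and 209 at 0 h. OEP16-1, an outer plastid envelope protein, had 12 at 24 h and 182 at 0 h. AT1G28610, of the GDSL lipase family, had 0 tags at 24 h and 65 at 0 h, at least 30.1-fold lower. Against that floor AT1G70820, a putative phosphoglucomutase, was 17.1-fold lower and the debranching enzyme DBE1 16.7-fold lower. AT5G27120, a NOP56-like protein of ribosomal RNA processing, was at 28 tags at 0 h, and all of these had 0 tags at 24 h. AT1G73600 and AT1G73602 had 2.25 tags each at 24 h, against 136 for AT1G73600 and 125 for AT1G73602 at 0 h, and their fractional counts show that they share reads. The other 3 of the 14 largest decreases, AT2G22795, the endoglucanase-like GH9C1 and the DnaJ-domain protein AT1G56300, each had 1 tag at 24 h and between 41 and 46 at 0 h.

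Only 8 genes called lower had 0 tags at 24 h. Tags that are shared between related genes were common, and 2795 of the 3563 genes had whole counts in both libraries.

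A second fit tested the same interval over both genotypes. It took the difference between 24 h and 0 h that No-0 and slh1 have in common, in an additive model of genotype and time over all 8 libraries (edgeR quasi-likelihood test, Benjamini-Hochberg adjustment, 3 residual degrees of freedom). It contains the No-0 libraries and is therefore no independent check of them. It sets each change against how unlike the courses of the genotypes were over time, together with values shared across genes. Its p-values are no measure of replicate error. The genes named below were picked for their large changes in these same No-0 libraries. Of 5881 genes tested, 694 (11.8%) were higher and 659 (11.2%) lower at an adjusted p below 0.05. LHY had an adjusted p of 2.53e-07, BXL1 of 6.71e-08, GSTF2 of 7.37e-08, PHS2 of 6.83e-09 and AT3G15450 of 3.52e-09 in this edgeR fit. The fold change of AT3G15450 in it was 6.44 ± 0.49 (log2, SE), and that of PHS2 was -6.22 ± 0.51.

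Most of the called clock genes of the morning were higher, and both called genes of the evening were lower. Of the 10 compared members of the morning list (14 in all), 7 were called higher and 2 lower, with a median difference of 2.06 beside 0.26 for all compared genes. The REVEILLE gene RVE4 had 250.3 TPM at 24 h and 22.1 at 0 h, a ratio of 11.4 (5.59 to 26.9). LNK4, of the family of night light-inducible clock-regulated genes, had 181 TPM at 24 h, against 11.0 TPM at 0 h, a ratio of 16.4 (6.19 to 61.5). Beside LHY, the genes RVE1, LNK3, RVE8 and CCA1 were higher as well. RVE1 had 21 tags at 24 h and 0 at 0 h, and CCA1, the close relative of LHY, had 25 tags at 24 h and 5 at 0 h. PRR7, a repressor of the morning loop, went against the rest of its list with 7.95 TPM at 24 h and 105 at 0 h, and so did LNK1 with 23.8 TPM at 24 h, against 74.4 TPM at 0 h. LHY, RVE4, LNK4, RVE1 and CCA1 reached 20 tags at 24 h alone and PRR7 and LNK1 at 0 h alone, so that the minimum itself favours these differences. All 14 members summed to 1123 TPM at 24 h and 309 at 0 h, a ratio of 3.64 (2.97 to 4.50). In the shared fit 6 of 10 tested members were higher and 2 lower.

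Of the 10 members of the evening list only 3 reached 20 tags, and 2 of them were lower. Both of these reached it at 0 h alone, so that the minimum itself favours a fall. All 10 members summed to 106 TPM at 24 h and 293 at 0 h, a ratio of 0.361 (0.254 to 0.506). GI, a scaffold protein of the evening clock, had 7.95 TPM at 24 h and 55.1 at 0 h. ELF4, part of the evening complex, had 5.96 TPM at 24 h, against 66.2 TPM at 0 h. LUX, another part of that complex, was not called at 32.2 tags at 24 h and 28.2 at 0 h. In the shared fit 3 of 7 tested members were lower, among them GI (adjusted p = 0.00296) and ELF4 (adjusted p = 0.000194 in edgeR). The dawn output list moved with the morning genes, with 3 of 5 compared members higher. COL2, a CONSTANS-like zinc finger protein, had 185 TPM at 24 h and 11.0 at 0 h. COL1 had 173 TPM at 24 h, against 19.3 TPM at 0 h. HY5, a bZIP factor of light signalling, had 26 tags at 24 h and 1 at 0 h. COL2, COL1 and HY5 reached 20 tags at 24 h alone, so that the minimum favours a rise. All 10 members of the dawn list summed to 1021 TPM at 24 h and 334 at 0 h, a ratio of 3.06 (2.51 to 3.76). The 0 h and 24 h times lie a whole day apart, yet these clock and dawn genes differed between them. Whether the hour of harvest had a part in this or in the lists that follow was not tested.

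The values at 6 and 9 h place the 24 h library among the other times of No-0. LHY stayed at 0, 3.18 and 1.83 TPM at 0, 6 and 9 h and was at 308 TPM at 24 h. ELF4 was at 66.2, 79.5, 319 and 5.96 TPM at 0, 6, 9 and 24 h. PRR7 was at 105, 9.54, 22.0 and 7.95 TPM at these times. LHY was thus high at 24 h alone, ELF4 was highest at 9 h, and PRR7 was highest at 0 h.

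**Figure D2:**
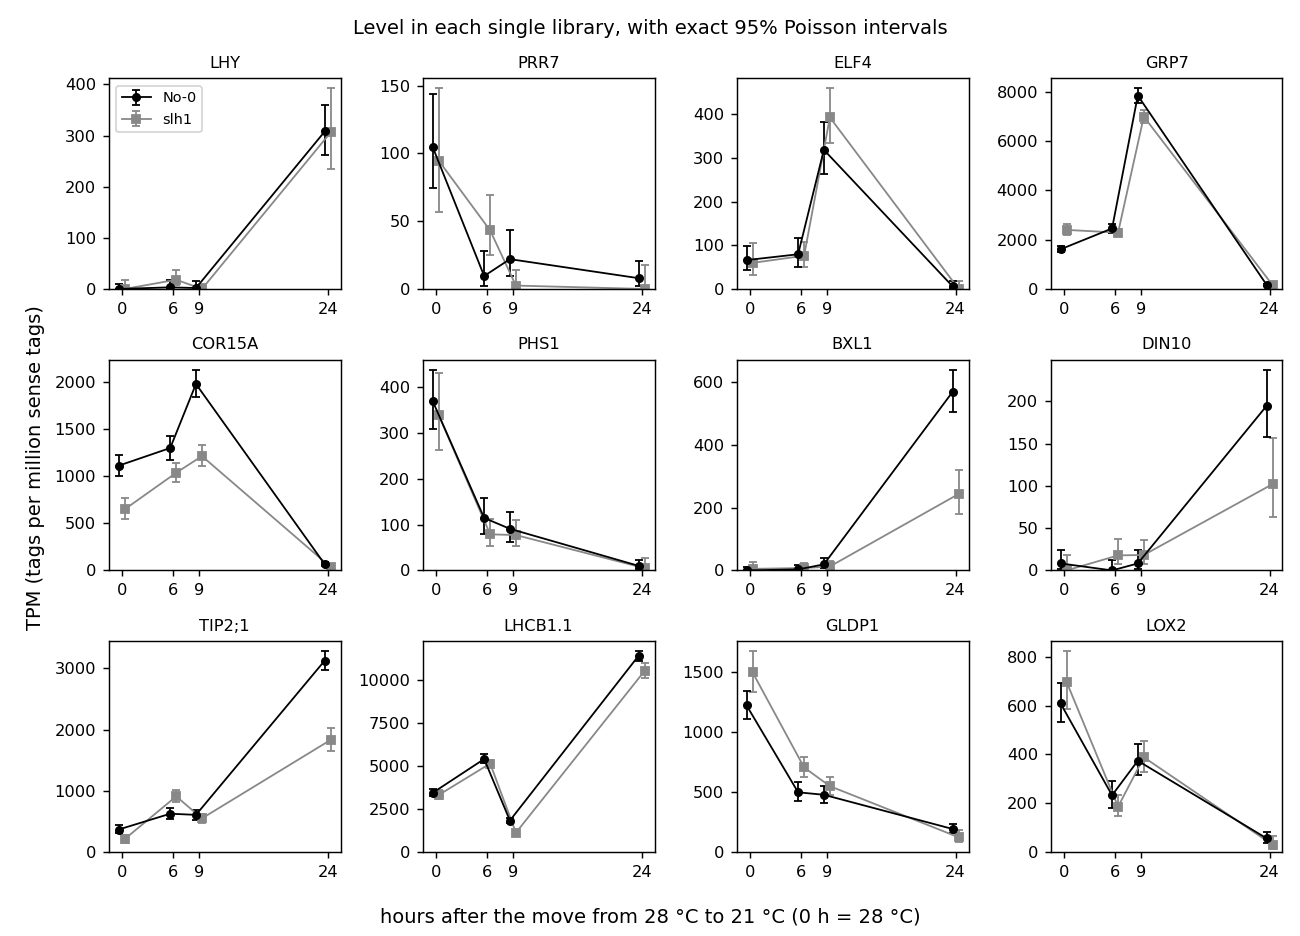
Level of 12 named genes (TPM, vertical axis) by hours after the move (0, 6, 9 and 24 h, horizontal axis) in No-0 (black circles) and slh1 (grey squares), 1 library a point with its exact 95% Poisson interval for counting error. At 24 h No-0 had 308 TPM of LHY and 568 TPM of BXL1, both under 20 TPM at the earlier times, while GRP7 was highest at 9 h with 7850 TPM and PHS1 at 0 h with 369 TPM.

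The genes of the dark and sugar starvation response formed the list with the highest median. All 8 compared members (of 24) were called higher, with a median difference of 4.61 and the lowest at 3.91. Each of the 8 reached 20 tags at 24 h alone, so that the minimum itself favours a difference, and the whole list is described by its sum. All 24 members summed to 2338 TPM at 24 h and 137 at 0 h, a ratio of 17.0 (12.8 to 23.0). Of the 16 members under 20 tags, DIN9 alone had fewer tags at 24 h (0) than at 0 h (2), and 2 had no tag in either library. ASN1, which encodes asparagine synthetase, had 63 tags at 24 h and 0 at 0 h. DIN10, a raffinose synthase-like gene of the dark response, had 98 tags at 24 h and 3 at 0 h (interval of the ratio 7.82 to 116). DRM2, a dormancy-associated gene, had 427 TPM at 24 h, against 13.8 TPM at 0 h, a ratio of 31.0 (13.1 to 96.4), and its relative DRM1 had 197 TPM at 24 h and 6.43 at 0 h. AKINBETA1, a regulatory subunit of the SnRK1 kinase that responds to low energy, had 71 tags at 24 h and 1 at 0 h. Together with BXL1, SEN1 and BGAL4, these 8 genes had at most 5 tags each at 0 h. The shared fit called 8 of 11 tested members higher and none lower. DRM2 was already at 146 TPM at 6 h and 451 TPM at 9 h, whereas ASN1 was at 0 TPM at both times.

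Most compared starch genes were lower, for breakdown and for synthesis. Of 12 compared breakdown members (16 in all), 9 were lower and 3 higher, with a median of -3.28. Each of the 9 reached 20 tags at 0 h alone, so that the minimum itself favours a fall. The summed level of all 16 was 665 TPM at 24 h, against 2103 TPM at 0 h (ratio 0.316, 0.277 to 0.360). SEX1, the glucan, water dikinase that phosphorylates the granule at the start of breakdown, had 28.3 TPM at 24 h and 314 at 0 h, a ratio of 0.0901 (0.0469 to 0.155). PWD, the phosphoglucan, water dikinase that acts after it, had 9.93 TPM at 24 h, against 113 TPM at 0 h. The phosphatases SEX4 and LSF1, which are linked to the removal of these phosphates or to its control, had 1 tag each at 24 h, against 35 for SEX4 and 23 for LSF1 at 0 h. The alpha-amylase AMY3 had 3 tags at 24 h and 49 at 0 h, and the disproportionating enzyme DPE1 had 4 at 24 h and 20 at 0 h. PHS1, PHS2 and DPE2, given above, complete the 9. Of the 4 members under 20 tags, ISA3, an isoamylase that removes branches, had 1 tag at 24 h and 19 at 0 h, and the limit dextrinase LDA had 1 at 24 h and 10 at 0 h.

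The 3 members that were higher were all of the beta-amylase family. BAM9, thought to lack catalytic activity, had 87 tags at 24 h and 1 at 0 h. BAM1 had 97.3 TPM at 24 h and 11.0 at 0 h, and BAM3, the main beta-amylase of leaf starch breakdown at night, had 294 TPM at 24 h, against 102 TPM at 0 h (ratio 2.88, 2.00 to 4.25). BAM3 was not called in the shared fit (adjusted p = 0.158, edgeR), and slh1 had 209 TPM at 24 h and 214 at 0 h. The shared fit called 10 of 15 tested breakdown genes lower and 2 higher.

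Of 8 compared genes of starch synthesis, 7 were lower and none was higher, with a median of -1.62. The starch synthase SS1 had 9.93 TPM at 24 h, against 138 TPM at 0 h, a ratio of 0.0721 (0.0224 to 0.180). APS1, the small subunit of ADP-glucose pyrophosphorylase, had 31.8 TPM at 24 h and 141 at 0 h, and APL1, its large subunit, had 87.4 TPM at 24 h, against 229 TPM at 0 h. The branching enzyme SBE2.1 had 3 tags at 24 h and 26 at 0 h. GBSS1, the granule-bound synthase that makes amylose, was the member that was not called, at 59.6 TPM at 24 h and 52.4 at 0 h (ratio 1.14, 0.62 to 2.14). In the shared fit 5 of 8 synthesis genes were lower.

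The promoters of these genes were searched for short motifs of the clock, light, cold and sugar responses. Promoters were cut from the RefSeq TAIR10.1 genome as the 250 bases before and the first 50 bases of each annotated nuclear gene that codes for a protein. The evening element, AAAATATCT on one strand or AGATATTTT on the other, is a site that the MYB-like clock factors bind. It was present in 25 of 213 promoters (11.7%) of genes 4-fold lower and in 5 of 394 promoters (1.27%) of genes 4-fold higher. For scale, 116 of the 3348 compared promoters (3.46%) and 773 of all 27443 such promoters (2.82%) held it. By the size of the difference, the share was 22.9% (14 of 61) below -3, 7.24% (11 of 152) from -3 to -2, 5.25% (21 of 400) from -2 to -1, 2.55% (20 of 785) from -1 to 0, 3.62% (35 of 966) from 0 to 1, 1.69% (10 of 590) from 1 to 2, 1.20% (3 of 250) from 2 to 3 and 1.39% (2 of 144) at 3 or more. Among the 4-fold lower genes with the element were AT1G28610, AT1G70820 and AT1G56300 from the largest decreases, the starch genes SEX1, PWD and DPE1, and GRP7, GRP8, PORB and TKL1 of the lists below. The 5 higher genes were AT2G15960, AT4G19200, CXXS1, COL2 and EXL2.

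The promoters of 3 starch genes, of the RNA-binding protein genes GRP7 and GRP8 and of PORB are printed because they carry the element among the lower genes, and that of COL2 because it carries it and was higher. They are in TAIR10.1, read 5′ to 3′ on the strand of the gene, with the evening element in capitals on whichever strand it lies. They come from chr1:3590879-3591178 (minus strand) for SEX1, chr5:9261229-9261528 (plus strand) for PWD, chr5:25928830-25929129 (minus strand) for DPE1, chr2:9266508-9266807 (minus strand) for GRP7, chr4:18275167-18275466 (minus strand) for GRP8, chr4:13725296-13725595 (plus strand) for PORB and chr3:489418-489717 (minus strand) for COL2.
SEX1: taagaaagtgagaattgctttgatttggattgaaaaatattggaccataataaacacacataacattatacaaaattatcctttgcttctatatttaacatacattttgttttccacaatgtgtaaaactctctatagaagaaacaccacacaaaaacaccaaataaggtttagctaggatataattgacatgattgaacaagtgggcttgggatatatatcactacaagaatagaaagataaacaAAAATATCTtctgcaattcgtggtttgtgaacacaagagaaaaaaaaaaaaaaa
PWD: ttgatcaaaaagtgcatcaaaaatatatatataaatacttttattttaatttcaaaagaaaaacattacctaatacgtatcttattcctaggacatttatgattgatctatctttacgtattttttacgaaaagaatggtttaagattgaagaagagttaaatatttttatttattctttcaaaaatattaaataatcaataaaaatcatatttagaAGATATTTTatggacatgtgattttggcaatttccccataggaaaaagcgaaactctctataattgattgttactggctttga
DPE1: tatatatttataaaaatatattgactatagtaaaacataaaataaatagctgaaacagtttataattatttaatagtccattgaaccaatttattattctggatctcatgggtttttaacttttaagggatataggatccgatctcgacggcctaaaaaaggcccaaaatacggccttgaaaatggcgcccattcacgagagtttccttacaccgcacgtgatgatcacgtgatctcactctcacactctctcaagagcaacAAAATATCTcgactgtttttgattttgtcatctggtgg
GRP7: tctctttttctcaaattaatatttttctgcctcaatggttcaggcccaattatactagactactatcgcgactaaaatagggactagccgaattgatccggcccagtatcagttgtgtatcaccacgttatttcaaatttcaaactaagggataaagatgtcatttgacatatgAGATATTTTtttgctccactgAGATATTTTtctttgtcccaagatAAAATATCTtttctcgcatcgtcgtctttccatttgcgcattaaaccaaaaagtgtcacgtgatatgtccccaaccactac
GRP8: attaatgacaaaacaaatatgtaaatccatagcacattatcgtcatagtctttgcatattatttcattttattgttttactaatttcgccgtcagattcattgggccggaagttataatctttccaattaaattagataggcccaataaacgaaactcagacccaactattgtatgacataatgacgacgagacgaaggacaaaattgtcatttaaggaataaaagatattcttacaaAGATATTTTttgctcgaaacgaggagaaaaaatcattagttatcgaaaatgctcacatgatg
PORB: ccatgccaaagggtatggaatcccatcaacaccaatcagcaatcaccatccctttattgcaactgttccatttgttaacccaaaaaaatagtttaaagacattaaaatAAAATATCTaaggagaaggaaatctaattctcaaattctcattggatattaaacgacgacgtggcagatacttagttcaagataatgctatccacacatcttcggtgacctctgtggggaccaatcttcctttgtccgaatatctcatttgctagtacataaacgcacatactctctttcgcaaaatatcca
COL2: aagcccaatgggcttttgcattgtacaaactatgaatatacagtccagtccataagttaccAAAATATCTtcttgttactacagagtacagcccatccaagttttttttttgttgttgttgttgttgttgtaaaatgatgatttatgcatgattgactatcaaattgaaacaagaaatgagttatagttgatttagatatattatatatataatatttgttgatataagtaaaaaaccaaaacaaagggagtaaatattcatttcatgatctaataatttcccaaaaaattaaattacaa

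GRP7 holds the element 3 times within its promoter, the other 6 once each. In SEX1 it spans the annotated start of the gene, and in DPE1 it lies in the transcribed part. A match is a match of letters and does not show that a factor was bound. Other motifs differed less between the sets. The G-box, CACGTG, was in 11.4% of promoters of 4-fold higher genes and 14.1% of 4-fold lower ones, beside 10.0% of compared promoters. The CRT/DRE core of the cold response, CCGAC or GTCGG, was in 18.0% of higher and 16.0% of lower promoters, beside 16.5% of those compared. The CCA1-binding site AAAAATCT (or AGATTTTT), which shares no full match with the evening element, was in 6.35% of higher and 10.8% of lower promoters, beside 8.30% of those compared. The telo-box AAACCCTA (or TAGGGTTT) was in 2.28% of higher and 7.04% of lower promoters, beside 6.63% of those compared. The W-box core TTGACC (or GGTCAA), the morning element CCACAC (or GTGTGG) and the sugar-response element TATCCA (or TGGATA) were the other 3 motifs. They were in 17.3% (W-box core), 10.4% (morning element) and 21.3% (sugar-response element) of higher promoters, and in 12.2%, 7.51% and 16.9% of lower ones in the same order. Of compared promoters 13.4%, 9.23% and 20.9% held them.

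**Figure D3:**
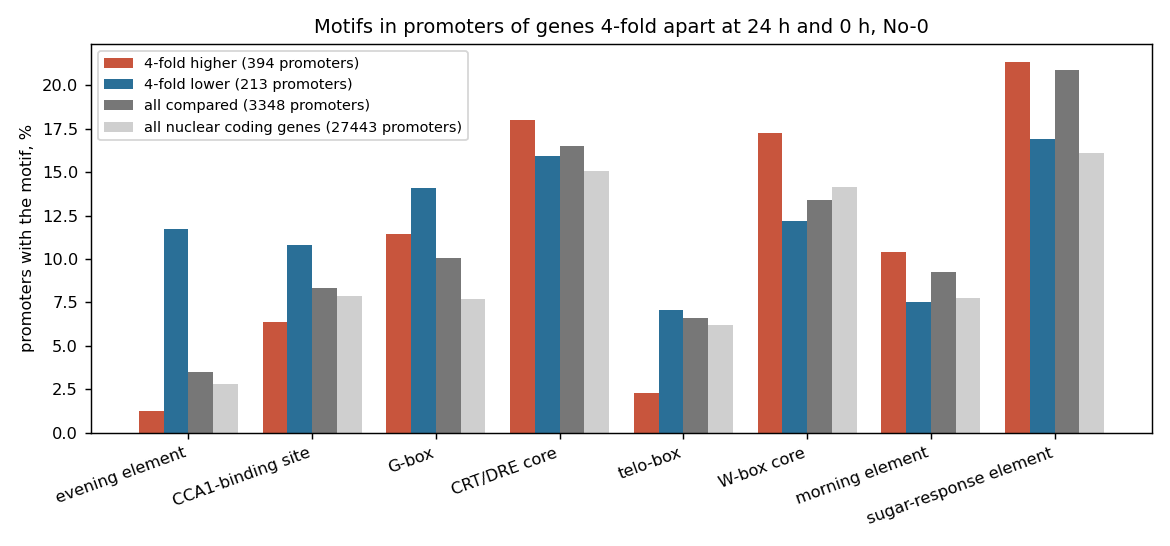
Share of promoters with each of 8 motifs (percent, on either strand) among genes 4-fold higher, genes 4-fold lower, all compared genes and all nuclear protein-coding genes; bars start at 0. The evening element was in 1.27% of 4-fold higher and 11.7% of 4-fold lower promoters, and 3.46% of all compared ones.

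The called cold response genes were all lower at 24 h, in the plants at the cooler temperature. Of 10 compared members (19 in all), 6 were lower and none was higher, with a median of -1.61. Their summed level was 4062, 6932, 11147 and 1100 TPM at 0, 6, 9 and 24 h, which gives a ratio of 0.271 (0.245 to 0.299) for 24 h over 0 h. COR15A, the neighbour and close relative of COR15B, had 65.6 TPM at 24 h, against 1111 TPM at 0 h, a ratio of 0.0590 (0.0401 to 0.0842), and the shared edgeR fit gave an adjusted p of 3.52e-09. RD29A, a classic reporter of cold and drought signalling, had 15.9 TPM at 24 h and 262 at 0 h. COR413-PM1 had 53.6 TPM at 24 h, against 469 TPM at 0 h, the dehydrin ERD10 had 25.8 TPM at 24 h and 109 at 0 h, and RCI2A had 103 TPM at 24 h, against 269 TPM at 0 h. KIN2 lay just inside the threshold of 1, with 443 TPM at 24 h and 868 at 0 h (difference -0.96), and was at 3053 TPM at 6 h and 4935 TPM at 9 h. COR15A, COR15B, COR413-PM1, RCI2A and KIN2 were above their 0 h level at 9 h and below it at 24 h, whereas RD29A and ERD10 were below it at both times. Scaled to nuclear tags alone, KIN2 was called lower as well, with a difference of -1.13. The 9 members under 20 tags, among them CBF1, CBF2 and CBF3, the transcription factors that switch on this response, had at most 6 tags in either library. In the shared fit 7 of 11 tested members were lower.

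RNA-binding protein genes that the clock and the cold act on were lower in part. Of 9 compared members, 4 were lower and 1 higher, with a median of -0.98. GRP7, a glycine-rich RNA-binding protein that feeds back on its own transcript in the evening, had 171 TPM at 24 h, against 1609.9 TPM at 0 h, a ratio of 0.106 (0.0836 to 0.133), with an adjusted p of 3.52e-09 in the shared edgeR fit. Its close relative GRP8 had 67.5 TPM at 24 h and 786 at 0 h. GRP7 passed through 2456 TPM at 6 h and 7850 TPM at 9 h. Both genes carry the evening element in the promoters printed above.

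**Figure D4:**
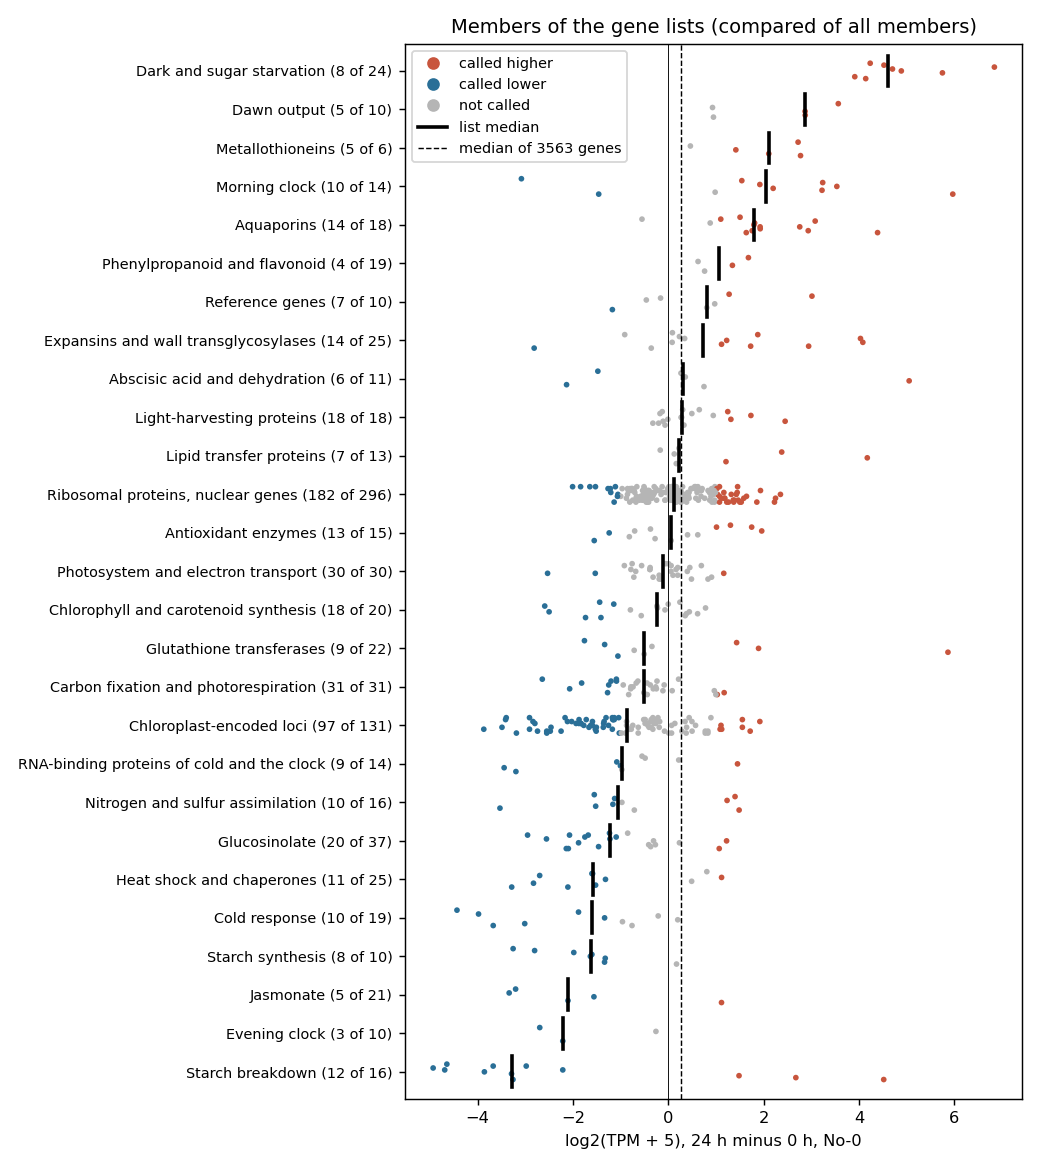
Difference of each compared member of 27 gene lists (log2(TPM + 5), 24 h minus 0 h, horizontal axis), 1 point a gene, with the median of each list as a black bar and the median of all 3563 genes (0.26) as a dashed line. The dark and sugar starvation list lies furthest right with a median of 4.61 and the starch breakdown list furthest left with a median of -3.28, among the lists with at least 3 compared members.

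Most aquaporin genes were higher. Of 14 compared members (18 in all), 12 were higher and none was lower, with a median of 1.80, and the summed level was 16381 TPM at 24 h, against 3951 TPM at 0 h (ratio 4.15, 3.92 to 4.39). PIP1;3, an aquaporin of the plasma membrane, had 1256 TPM at 24 h and 55.1 at 0 h, a ratio of 22.8 (14.6 to 37.5). TIP2;1, an aquaporin of the vacuolar membrane, had 3127 TPM at 24 h, against 365 TPM at 0 h, a ratio of 8.56 (7.19 to 10.3). PIP2;7 had 1066 TPM at 24 h and 135 at 0 h, and TIP1;2 had 3389 TPM at 24 h, against 973 TPM at 0 h. Members of both membranes therefore moved the same way. TIP1;1 was the smallest of the calls, with 324 TPM at 24 h and 148 at 0 h. Its call was lost when nuclear tags alone set the scale (difference 0.94). PIP1;4 (80.5 tags at 24 h, 86 at 0 h) and TIP2;2 (48 tags at 24 h, 18 at 0 h) were not called. In slh1 TIP1;1 had 58.4 TPM at 24 h, against 119.5 TPM at 0 h. The shared fit called 11 of 15 tested members higher and none lower.

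Metallothionein genes, whose small proteins bind metal ions, were higher for 4 of 5 compared members. MT2B had 4303 TPM at 24 h and 995 at 0 h, a ratio of 4.32 (3.87 to 4.85), and MT3 had 3090 TPM at 24 h, against 1155 TPM at 0 h. Of 13 compared antioxidant enzymes, 4 were higher and 2 lower, near the 28.7% and 18.7% of all compared genes, and the list median of 0.06 lay below the 0.26 of all. As single genes, the called members were as follows. The copper-zinc superoxide dismutases CSD1 (475 TPM at 24 h, 138 TPM at 0 h) and CSD2 (993 TPM at 24 h, 399.7 TPM at 0 h) were higher, and so was CCS, their copper chaperone, at 143 TPM at 24 h and 33.1 at 0 h. FSD1, the iron superoxide dismutase, was lower, at 159 TPM at 24 h, against 477 TPM at 0 h, as was the peroxiredoxin PRXQ. Catalase CAT2 had 1998 TPM at 24 h and 989.6 at 0 h, and its call was lost when nuclear tags alone set the scale.

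Cell wall genes of the expansin and xyloglucan endotransglycosylase families, which loosen or remodel the wall, were mostly higher in No-0 among those called. Of 14 compared members 7 were higher and 1 lower, beside 28.7% higher and 18.7% lower of all compared genes. XTH27 had 87 tags at 24 h and 2 at 0 h, and XTH24 had 84 at 24 h and 2 at 0 h. XTH6 had 479 TPM at 24 h, against 57.9 TPM at 0 h, a ratio of 8.27 (5.29 to 13.6). XTH31 was the member called lower, with 53.6 TPM at 24 h and 408 at 0 h. The list median was 0.73 in No-0, but 0.07 for the same members in slh1. All members of the list summed to 1889 TPM at 24 h and 1203 at 0 h in No-0. In slh1 the sum went the other way, at 1125 TPM at 24 h and 1600 at 0 h. In the fit over both genotypes edgeR called 3 of 17 tested members higher and 1 lower. Of the 7 compared lipid transfer protein genes 3 were higher, beside 28.7% of all compared genes, but their median of 0.22 was near that of all genes and the list sum had a ratio of 1.26 (1.14 to 1.38). Of the 4 compared phenylpropanoid genes 2 were higher, too few to set against that share.

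The nuclear genes of photosynthesis did not move together. Light-harvesting protein genes gave 4 higher (22.2%) and none lower of 18, beside 28.7% higher and 18.7% lower of all compared genes. Their median of 0.29 was near the 0.26 of all. Their summed level was 87156 TPM at 24 h, against 62155 TPM at 0 h (interval of the ratio 1.38 to 1.43). LHCB1.4 had 4010.4 TPM at 24 h and 729.8 at 0 h, a ratio of 5.50 (4.83 to 6.26). LHCB1.1 had 11409 TPM at 24 h, against 3432 TPM at 0 h, a ratio of 3.32 (3.13 to 3.54), and LHCB1.3 had a ratio of 2.48 (2.36 to 2.61). LHCB4.2, an antenna protein of photosystem II outside the LHCB1 group, had 2688 TPM at 24 h and 1130.2 at 0 h. The LHCB1 genes are near-identical copies and share reads, so that their separate values are uncertain. The other 14 members were not called.

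Photosystem and electron transport genes stayed near the median of all genes, with 1 higher and 2 lower of 30 and a median of -0.11 that turned to 0.03 under TMM scaling. FNR2, a ferredoxin-NADP reductase, had 139 TPM at 24 h, against 829.7 TPM at 0 h, and ATPC1, the gamma subunit of the chloroplast ATP synthase, had 401 TPM at 24 h and 1172 at 0 h. Both were lower. Genes of carbon fixation and photorespiration were lower in 8 of 31 (25.8%) and higher in 2 (6.45%), with a median of -0.52. Of all compared genes 18.7% were lower and 28.7% higher. GLDP1, the P protein of glycine decarboxylase in photorespiration, had 191 TPM at 24 h, against 1219.8 TPM at 0 h, a ratio of 0.156 (0.124 to 0.196). SHM1, the mitochondrial serine hydroxymethyltransferase that works with it, had 534 TPM at 24 h and 1899 at 0 h. The transketolase TKL1 had 364 TPM at 24 h, against 1544 TPM at 0 h. The small subunit gene RBCS1A of Rubisco was not called, at 21678 TPM at 24 h and 18686 at 0 h, whereas RBCS2B was lower, at 4971 TPM at 24 h, against 10582 TPM at 0 h. The calls of RBCS2B and of the carbonic anhydrase CA1 were lost under TMM scaling. The shared fit, over both genotypes, called 14 of 31 members of this list lower and 4 higher.

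Of 18 compared genes of chlorophyll and carotenoid synthesis, 6 (33.3%) were lower and none was higher, beside 18.7% lower and 28.7% higher of all compared genes. The other 12 were not called and the list median was -0.23. All 20 members summed to 3606 TPM at 24 h and 4800 at 0 h, a ratio of 0.751 (0.703 to 0.803). PORB and PORC, the light-dependent protochlorophyllide reductases, were both lower. PORB had 107 TPM at 24 h and 631 at 0 h, and PORC had 77.5 TPM at 24 h, against 270.1 TPM at 0 h. DVR, which reduces the vinyl group of chlorophyll precursors, had 21.9 TPM at 24 h and 157 at 0 h.

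In nitrogen assimilation enzymes of successive steps moved in opposite directions. Nitrate reductase NIA2, which makes nitrite, had 1096 TPM at 24 h, against 389 TPM at 0 h, a ratio of 2.82 (2.34 to 3.42). The second nitrate reductase gene, NIA1, was lower with 24 tags at 24 h and 41 at 0 h, and was not called in the shared fit (edgeR adjusted p = 0.149). Nitrite reductase NIR1, the next enzyme, had 21.9 TPM at 24 h and 306 at 0 h, a ratio of 0.0714 (0.0346 to 0.133). The plastid glutamine synthetase GS2 had 570.1 TPM at 24 h, against 1252 TPM at 0 h, and the glutamate synthase GLU1 had 161 TPM at 24 h and 482 at 0 h. Under TMM scaling GS2 just missed the threshold at -0.99. The cytosolic glutamine synthetase GLN1;2 was higher, at 272 TPM at 24 h, against 113 TPM at 0 h, so that the plastid and the cytosolic forms also differed in direction. The shared fit called NIA2 higher (adjusted p = 0.000218) and NIR1 lower (adjusted p = 2.34e-06) by edgeR, but did not call GLN1;2 (adjusted p = 0.0669).

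Genes of the glucosinolate pathway, which makes sulfur-rich defence compounds of the cabbage family, were lower in 12 of 20 compared members and higher in 2, with a median of -1.23. Of all compared genes 18.7% were lower and 28.7% higher. All 37 members summed to 1717 TPM at 24 h and 3223 at 0 h, a ratio of 0.533 (0.487 to 0.582). MYB28, CYP79F1 and AOP3 reached 20 tags at 0 h alone, so that the minimum itself favours a fall. MYB28, a regulator of the aliphatic branch, had 3 tags at 24 h and 29 at 0 h. CYP79F1, which starts the core of that branch, had 19.9 TPM at 24 h and 105 at 0 h, and AOP3, which modifies its side chains, had 33.8 TPM at 24 h, against 223 TPM at 0 h. IIL1, an isomerase subunit of chain elongation, had 69.5 TPM at 24 h and 270.1 at 0 h. The 2 higher members, NSP1 and NSP5, are nitrile-specifier proteins that act when glucosinolates are broken down, and neither was called in the shared fit (edgeR adjusted p = 0.371 for NSP1 and 0.145 for NSP5). That fit called 13 of 28 tested members lower and none higher.

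Of the 5 compared jasmonate genes, 4 were lower. LOX2, the chloroplast lipoxygenase at the head of jasmonate synthesis, had 55.6 TPM at 24 h, against 609 TPM at 0 h, a ratio of 0.0913 (0.0593 to 0.136), and an adjusted p of 4.15e-08 in the shared edgeR fit. AOS, the next enzyme, had 57.6 TPM at 24 h and 265 at 0 h, and the allene oxide cyclase AOC2 had 7.95 TPM at 24 h, against 114 TPM at 0 h. The higher gene was JAZ9, a repressor of jasmonate responses, at 77.5 TPM at 24 h and 33.1 at 0 h. The call of JAZ9 was lost under nuclear scaling (difference 0.98). In slh1 JAZ9 had 38.9 TPM at 24 h, against 69.8 TPM at 0 h.

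Heat shock and chaperone genes were lower in 8 of 11 compared members and higher in 1, with a median of -1.59. The list sum differed less, at 1233 TPM at 24 h and 1766 at 0 h, a ratio of 0.698 (0.624 to 0.781), and HSC70-1, an abundant cytosolic chaperone that was not called, had 383 tags at 24 h and 157 at 0 h (difference 0.81). The chloroplast chaperones HSP90.5 (3 tags at 24 h, 37 at 0 h) and cpHSC70-2 (30.8 TPM at 24 h, 249 TPM at 0 h) and BIP1 of the endoplasmic reticulum (21.9 TPM at 24 h, 169.5 TPM at 0 h) were among them. MBF1C, a coactivator of the heat response, was the member called higher, with 24 tags at 24 h and 7 at 0 h, and was not called in the shared fit (edgeR adjusted p = 0.327). Of the 25 members, 14 were under 20 tags in both libraries. Genes of growth at warm temperature, a list of 18, had 1 member at 20 tags or more, the factor PIF5, which was not called at 31 tags at 24 h and 19 at 0 h.

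Immune genes of the salicylic acid pathway were mostly too low to compare in wild-type leaves. Only 2 of 25 reached 20 tags, and both were lower. Both reached it at 0 h alone, so that the minimum itself favours a fall. All 25 members summed to 136 TPM at 24 h and 405 at 0 h in No-0. In slh1 they summed to 3387 TPM at 24 h and 947 at 0 h. The shared fit, over both genotypes, called 2 of 6 tested members higher and none lower. PCC1 had 8 tags at 24 h and 61 at 0 h, a ratio of 0.0945 (0.0391 to 0.198), and ACD6, a membrane protein that tunes salicylic acid defence, had 7 tags at 24 h and 50 at 0 h. Among 9 compared glutathione transferases 3 were higher and 3 lower, 33.3% each, beside 28.7% higher and 18.7% lower of all compared genes. GSTF8 had 228 TPM at 24 h and 57.9 at 0 h, and GSTF9 had 219 TPM at 24 h, against 753 TPM at 0 h. Of the 6 compared genes of abscisic acid and dehydration 1, SAG21, was higher and 2 were lower, too few to set against the shares of all compared genes.

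Of 97 compared chloroplast-encoded loci, 45 (46.4%) were lower and 7 (7.22%) higher, with a median of -0.88. Of all compared genes 18.7% were lower and 28.7% higher. All 131 chloroplast loci summed to 133930 TPM at 24 h and 226440 at 0 h, and most of that fall lay in 1 pair of loci. This pair, ATCG00950 and ATCG01180, had identical values in every library and is therefore counted on shared reads. Each of the 2 loci had 31336 TPM at 24 h and 70817 at 0 h, so that the summed fall says little of the other chloroplast loci. ATCG01020 went the other way, at 18260 TPM at 24 h, against 5552 TPM at 0 h, a ratio of 3.29 (3.13 to 3.45). Tags of chloroplast RNA come from a method that starts at poly(A), and which chloroplast RNA it takes was not tested. Of 182 compared nuclear genes for ribosomal proteins, 28 (15.4%) were higher and 11 (6.04%) lower, both below the 28.7% and 18.7% of all compared genes. Their median of 0.12 turned to -0.04 under nuclear scaling.

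Of 7 compared genes that often serve as references, 2 were higher and 1 lower, shares near those of all compared genes (28.7% higher, 18.7% lower). Their list summed to 2759 TPM at 24 h and 2632 at 0 h (interval of the ratio 0.965 to 1.14). ACT8 had 169 TPM at 24 h and 16.5 at 0 h, UBC9 had 174 TPM at 24 h, against 68.9 TPM at 0 h, and GAPC2 had 417 TPM at 24 h and 948 at 0 h. ACT2, at 443 TPM at 24 h, against 223 TPM at 0 h, lay just under the threshold with a difference of 0.97, and UBQ10 had 759 TPM at 24 h and 432 at 0 h.

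The same interval in slh1, again 1 library a side, had mostly the same directions. Of the 1022 genes higher in No-0, 544 (53.2%) were called higher and 11 lower in slh1, and 897 had a positive difference. Of the 665 genes lower in No-0, 448 (67.4%) were called lower and 5 higher in slh1, and 627 had a negative difference. Over all 3563 compared genes slh1 had 755 (21.2%) higher and 755 (21.2%) lower, and its libraries were shallower, with 205619 sense tags at 24 h and 200614 at 0 h. LHY had 306 TPM at 24 h and 0 at 0 h in slh1, against 308 TPM at 24 h and 0 at 0 h in No-0. COR15A had 34.0 TPM at 24 h and 648 at 0 h in slh1, and BXL1 had 243 TPM at 24 h, against 4.98 TPM at 0 h.

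**Figure D5:**
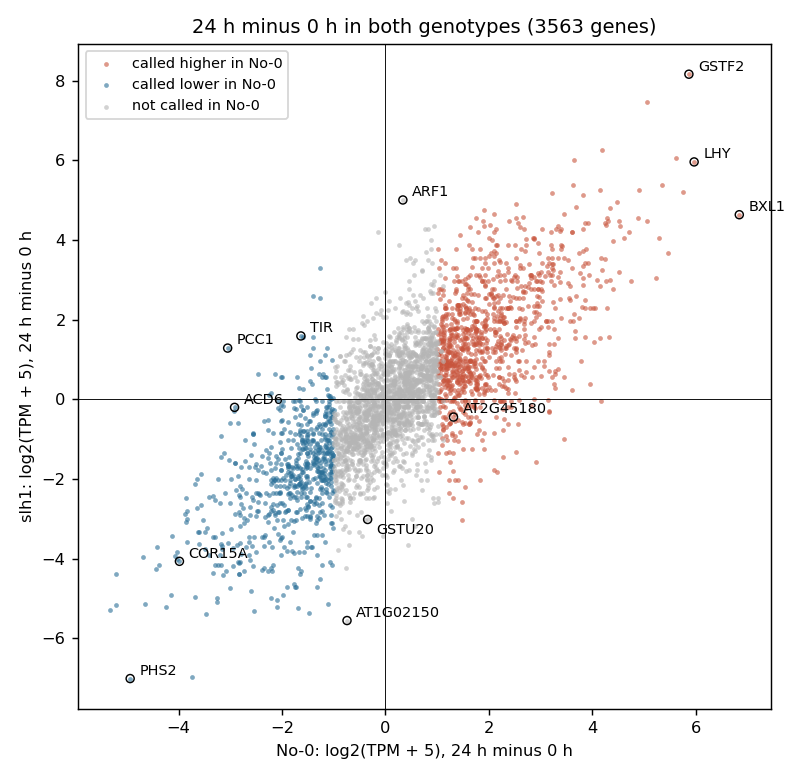
Difference between 24 h and 0 h (log2(TPM + 5)) in slh1 (vertical axis) against that in No-0 (horizontal axis) for the 3563 compared genes, 1 point a gene, coloured by the call in No-0. Of the genes called lower in No-0, 627 of 665 lie below 0 in slh1, while PCC1 and TIR lie above it.

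A difference between the genotypes in this interval was tested for each gene (slh1 minus No-0, edgeR quasi-likelihood test, 1 residual degree of freedom). Each of the 4 groups compared is 1 library, so that the spread comes from the genotype difference at 6 and 9 h together with values shared across genes. The test assumes that the libraries at 0 and 24 h vary in the same way, which was not tested, and its p-values are no measure of replicate error. Of 7824 genes, 12 (0.153%) had a higher and 4 (0.0511%) a lower change in slh1 at an adjusted p below 0.05. PCC1 had 1170 TPM at 24 h and 476 at 0 h in slh1, against 15.9 TPM at 24 h and 168 at 0 h in No-0, a difference of 4.67 ± 0.57 (log2, SE, edgeR adjusted p = 2.74e-12). TIR, a gene for a Toll/interleukin-1 receptor domain protein, had 1318 TPM at 24 h and 434 at 0 h in slh1, against 76.5 TPM at 24 h and 248 at 0 h in No-0 (adjusted p = 7.87e-09). ACD6 had 297 TPM at 24 h and 341 at 0 h in slh1, against 13.9 TPM at 24 h and 138 at 0 h in No-0 (adjusted p = 0.0174). PCC1 and TIR also passed under limma-voom (adjusted p = 7.39e-05 for PCC1 and 2.65e-06 for TIR), and PCC1 under DESeq2 (0.00756). ACD6 passed under neither, with 0.636 under limma-voom. GSTU20, a glutathione transferase, had a lower change in slh1, with 43.8 TPM at 24 h and 389 at 0 h in slh1, against 199 TPM at 24 h and 254 at 0 h in No-0 (edgeR adjusted p = 0.00252, but 0.570 under limma-voom). In all, DESeq2 called 1 gene and limma-voom 7, and genes outside the 16 are not shown to change alike.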

How the data were processed

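Leaves of No-0 and slh1 were measured by EXPRSS Tag-seq with 1 library for each genotype and time. The authors deposited 1 table per library with expected counts of tags per locus, not scaled, in which a read on several genes was split equally between them. The submitters' processing notes name Bowtie 0.12.8 and the genome TAIR10, while the methods also name BWA for these paired reads, so the aligner is not certain. Rows whose locus carries a prefix were taken for antisense tags and left out of TPM. Each library's sense tags were scaled to 1000000. The 2 libraries were compared over genes with at least 20 tags in 1 of them, on log2(TPM + 5), with exact 95% Clopper-Pearson intervals of the ratio. Tags carry no molecular identifiers, so intervals and floors (3 tags) cover counting error only. One tag is worth 1.99 TPM at 24 h and 2.76 TPM at 0 h.

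For the fits over both genotypes, expected counts were rounded and tested with edgeR 4.0.16 (quasi-likelihood, TMM, filterByExpr) in R 4.3.3 over all genes that passed the filter. DESeq2 1.42.0 and limma 3.58.1 (voom) were alternatives, and the steps were tested on simulated data. Nothing in the labels says how the plants of a library were sampled. The p-values of these fits rest on how unlike the genotypes were over time, together with values shared across genes. They are no measure of replicate error. Symbols, positions and promoters come from RefSeq TAIR10.1, matched by locus for 98.5% of 21063 genes. The authors used TAIR10. Chloroplast loci keep the files' identifiers.

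Named genes are the 14 largest called differences in each direction, the 4 members of each gene list with the most tags, any list member that was called, and up to 5 genes in each direction of each edgeR comparison. Of these the text gives a selection, and members under 20 tags that it names (ISA3, LDA, DIN9 and the CBF genes) were chosen after their values were seen. The lists, rules and alternatives were chosen with earlier results of these data known. The lists for ribosomal proteins and chloroplast loci were built from the annotation. Alternatives changed the pseudocount, the minimum, the scale, the depth of the 24 h library, the tool and the libraries in the fit. A sample of reads assigned to no barcode was not used here.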

Additional observations from a re-analysis of the deposited data

Results flagged for a closer look

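For 16 genes the difference between 24 h and 0 h passed edgeR's test between slh1 and No-0 (adjusted p below 0.05), with 1 library in each of the 4 groups. PCC1 (adjusted p = 2.74e-12), TIR (7.87e-09), ACD6 (0.0174) and GSTU20 (0.00252) are described above with their levels. AT5G42530 had 6106 TPM at 24 h and 2560 at 0 h in slh1, against 725 TPM at 24 h and 1116 at 0 h in No-0 (edgeR adjusted p = 1.40e-06). AT2G45180 had 1352 TPM at 24 h and 1839 at 0 h in slh1, against 2539 TPM at 24 h and 1017 at 0 h in No-0 (2.46e-05 by edgeR). ARF1 had 32 tags at 24 h and 0 at 0 h in slh1, against 69 at 24 h and 39 at 0 h in No-0 (0.00252 by edgeR). AT1G02150 had 0 tags at 24 h and 46 at 0 h in slh1, against 28 at 24 h and 35 at 0 h in No-0 (0.00376 by edgeR). SAI-LLP1 had 86 tags at 24 h and 4 at 0 h in slh1, against 0 at 24 h and 3 at 0 h in No-0 (0.0327 by edgeR). AT1G05135 had 30 tags at 24 h and 4 at 0 h in slh1, against 9 at 24 h and 20 at 0 h in No-0 (0.0464 by edgeR), and AT2G19806 had 1126 TPM at 24 h and 377 at 0 h in slh1, against 1461 TPM at 24 h and 1366 at 0 h in No-0 (0.0215 by edgeR).

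The other 5 are chloroplast loci, whose share of all sense tags also differed between the libraries. The edgeR adjusted p was 5.02e-06 for ATCG00820, 0.00252 for ATCG00740, 0.0215 for ATCG01310 and 0.0210 for ATCG00950 and ATCG01180, a pair with identical values. ATCG00820 had 793 TPM at 24 h and 1206 at 0 h in slh1, against 197 TPM at 24 h and 1440 at 0 h in No-0.

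Many of these calls rest on the tool. PCC1 alone passed under DESeq2 (adjusted p = 0.00756), and under limma-voom PCC1, TIR, AT5G42530, ATCG00820, AT2G45180, ATCG00950 and ATCG01180 passed. With limma-voom ARF1, GSTU20, AT1G02150, ACD6, SAI-LLP1 and AT1G05135 had adjusted p between 0.570 and 0.688, ATCG01310 had 0.0583, ATCG00740 had 0.0731 and AT2G19806 had a higher value than these. Scaled to total tags in edgeR, ATCG00950 and ATCG01180 had an adjusted p of 0.604, AT2G19806 of 0.125, ATCG01310 of 0.115 and AT1G05135 of 0.0615. With no filter on low counts ACD6 (0.0624), SAI-LLP1 (0.101), AT1G05135 (0.201), AT2G19806 (0.227), ATCG01310 (0.217) and the pair ATCG00950 and ATCG01180 also missed the threshold, as did that pair with a mean of at least 20 tags (0.175).

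Antisense rows, which entered no comparison above, also moved between the No-0 libraries. Of 414 antisense rows with 20 or more tags in at least 1 of the 2 libraries, 157 (37.9%) were called, 72 higher and 85 lower at 24 h. That share lies below the 47.3% of compared sense genes called by the same rule. For 86 of the 157 the sense row of the same locus was called in the same direction, for 1 in the other, for 55 it was not called and for 15 it was under the minimum. The same count for antisense rows that were not called was not made. PIP1;3 had 45 antisense tags at 24 h and 0 at 0 h, and GRP7 had 0 at 24 h and 46.5 at 0 h. The files do not state that these rows are antisense.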

How the results depend on the processing

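The 1687 calls of No-0 became 2674 with at least 10 tags, 695 with at least 50 and 3318 with no minimum. The 652 genes 4-fold apart became 1059, 272 and 1304 under these minimums, and 264 with a pseudocount of 20 TPM. These settings change how many genes are compared or shrink low genes by construction. Under a pseudocount of 1 TPM, the TMM, RLE, nuclear and sense-and-antisense scales, a thinned 24 h library and whole counts only, both counts stayed within 1.5 times, with 1382 to 1759 calls. Higher genes were 60.6% of calls, 68.0% under RLE, 53.9% under nuclear tags, 54.3% with the thinned library and 49.2% with no minimum. No call turned to the other direction, but these settings could hardly turn a difference of at least 1. Of 320 named genes, 12 lost their call and 4 gained one under TMM, 16 lost and 1 gained under nuclear tags, and 32 lost it with a pseudocount of 20 TPM. The medians of the light-harvesting and photosystem lists became 0.43 and 0.03 under TMM and 0.13 and -0.27 under nuclear tags.

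The 1353 edgeR calls over both genotypes were 903 with DESeq2, 1231 with limma-voom and 872 with a mean of at least 20 tags, and between 1203 and 1363 without the 6 h libraries, the 9 h libraries or both. The 16 genotype differences became 1 with DESeq2, 7 with limma-voom, 9 with no filter and 31 with a mean of at least 20 tags. No paired analysis was possible because each group has 1 library and no replicate could be left out of it. At this depth 3 tags are 5.96 TPM at 24 h and 8.27 TPM at 0 h, so that a gene under these levels could not be told from 0.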
